A study of Mus musculus with 20 samples.

Results

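The kinesin motor family was examined in RNA immunoprecipitation sequencing (RIP-Seq) of Tet proteins in mouse embryonic stem cells (ESCs). The family was taken as the 41 genes, of 23284 in the deposited tables, whose symbol is Kif or Kifc followed by a number and at most 1 of the letters a, b and c. By their known roles, 15 of them were grouped as mitotic kinesins, 17 as transport kinesins and 9 as kinesins of the cilium, of signalling or of other function. Its members were chosen by symbol, but the family itself was selected on the high IP over input ratio of Kif18a in the Tet1 RIP. The IP over input ratios of Tet1 are therefore given below as a description, without tests. Earlier results of the other RIPs were also known when the family, its classes and the partner lists were chosen. The p-values below are thus not independent of that choice.

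Kinesins are motor proteins that use ATP to move along microtubules or to take microtubules apart. In dividing cells some of them slide spindle microtubules, align chromosomes and build the midzone at which the daughter cells separate. Others carry vesicles, organelles, protein complexes and mRNAs along microtubules, and a few act in the cilium and in signalling. ESCs divide rapidly and express many mitotic kinesins. Tet1 and Tet2 are dioxygenases that oxidise 5-methylcytosine, in DNA and also in RNA, to 5-hydroxymethylcytosine.

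All libraries came from ESCs grown with serum and leukemia inhibitory factor, into which a Flag+HA+Twin-Strep tag had been placed by CRISPR-Cas9 at the end of an endogenous gene. The genotypes were Tet1-KI (the Tet1 line, with 2 IP and 2 input libraries), Tet2-KI (the Tet2 line, 4 and 4) and Tet2-delta-RNA-binding-domain-KI (the Tet2ΔRBD line, 4 and 4), whose tagged Tet2 lacks its RNA-binding domain. RNA bound to the anti-Flag antibody (IP) was set against RNA that was not immunoprecipitated (input), and the comparison of the Tet2 lines asks whether binding needs the RNA-binding domain. The lines were made from picked clones, and how many clones stand behind a line is not given in the sources used here. According to the study's methods the IP started from cytoplasmic extract, while the labels describe the input as extracted total RNA. Antibody recovery and cell compartment can thus not be told apart in any ratio below. The methods also mention control reactions with mouse IgG, but no library used here is such a control. RNA held unspecifically by beads or antibody can therefore not be told apart from RNA held by a Tet protein. For the same reason, a similar ratio in Tet2 and Tet2ΔRBD does not show whether binding needs the RNA-binding domain. In bulk samples, fewer cells that express a gene and less RNA per cell cannot be told apart either.

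Depth, as the sum of expected counts in a library, ran from 21078995 to 37576638 over the 20 libraries (median 25517290). The labelled cell type was borne out by its defining markers, since the 5 ESC markers summed to between 3028 and 4030 TPM (a transcript level scaled for length and library size) in the 10 inputs, while 8 markers of early differentiation summed to between 7.55 and 100 and 5 fibroblast markers to between 14.4 and 66.2. The numbering of the deposited data puts replicate 1 of both Tet2 lines in 1 library set, replicate 2 of both in another, and replicates 3 and 4 of both, with all Tet1 libraries, in a further set. What a set stands for is not stated in the labels. The number 2 pairs of both Tet2 lines stood apart from the others for many kinesins, and the main results are therefore given with and without them. That omission was chosen after the values were seen, so results without these pairs are a description and no separate support. Whether replicates of a line came from separate cultures is not stated either, and p-values then measure only the spread between these libraries. Replicates 3 and 4 of a Tet2 line were also far closer to each other (chi-square of the counts over its degrees of freedom between 2.83 and 17.4) than any other replicates of these lines (between 145 and 582), so 4 pairs may overstate the independent replication, and the calls are given with their counts summed to 1 pair as well. The 2 Tet1 replicates lay in the same low range (7.97 in IP and 8.03 in input), so the 2 Tet1 pairs may overstate the independent replication too.

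The stretch of the coding sequence around the ATP-binding loop of the motor domain shows both what the family shares and how its members differ in base composition, which the results below return to. Only the mitotic members Kif18a, Kif18b, Kif20b, Kif15, Kif11, Kif22 and Kifc1 were looked at for this loop. An intron splits it in Kif15 and Kif22. In the other 5 of them it lies in 1 exon, and its 30 bases are printed 5′ to 3′ from the NCBIM37 (mm9) genome, the build the authors used, with G and C in capitals.
Kif18a: tatGGtGCCaCtGGatCtGGGaaaaCtCaC
Kif18b: tatGGCGCCaCCGGGGCtGGGaaGaCaCaC
Kif20b: tatGGtCtGaCCaattCtGGaaaaaCatat
Kif11: tatGGtCaGaCtGGCaCtGGaaaaaCtttt
Kifc1: tatGGaCaGaCaGGCaGtGGCaaGaCCttC
They lie at chr2:109129844-109129873 on the plus strand for Kif18a, chr11:102776977-102777006 on the minus strand for Kif18b, chr19:35004273-35004302 on the plus strand for Kif20b, chr19:37459223-37459252 on the plus strand for Kif11 and chr17:34020326-34020355 on the minus strand for Kifc1. Of the 30 bases, 15 are G or C in Kif18a, 20 in Kif18b, 10 in Kif20b, 12 in Kif11 and 16 in Kifc1. All 5 begin with the same 5 letters.

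In the input, mitotic kinesins made up most of the family's mRNA. The 15 mitotic members summed to between 247 and 651 TPM over the 10 inputs (median 343), the 17 transport members to between 90.4 and 141 (median 115), and the 9 others to between 7.98 and 24.5 (median 10.7). The 6 mitotic members with the highest mean input level were Kifc1, a minus-end-directed motor that bundles spindle microtubules (120 ± 42.3 TPM, SD, n = 10), Kif22, which acts on chromosome arms (100.1 ± 32.3), Kif18b, a depolymerase of astral microtubules (41.9 ± 21.9), Kif2c, the centromeric depolymerase also called MCAK (34.6 ± 16.2), Kifc5b (29.6 ± 10.3) and Kif20a, a motor of the spindle midzone (20.1 ± 15.1). These SDs cover all 3 lines. Neighbours in this order lay within 1 SD of each other except Kif22 and Kif18b. All genes were measured in the same libraries, so an SD over libraries does not show whether the order held within each library.

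Transport kinesins were lower in the input and lay closer together. Kifc3, a minus-end-directed motor, led at 39.9 ± 11.5 TPM (SD, n = 10), followed by Kif1c, a vesicle motor (16.3 ± 4.14), Kifc2 (10.03 ± 2.50), Kif5b, the ubiquitous conventional kinesin heavy chain (8.97 ± 2.00), Kif21b (6.97 ± 3.29) and Kif13a, a motor of endosomes (6.83 ± 1.41). The neuronal heavy chains Kif5a and Kif5c were at 1.88 ± 0.715 and 1.61 ± 0.405 TPM. Of the 41 members, 30 had a mean input level of at least 1 TPM. Kif2b had no read in any of the 20 libraries, which allows up to 3 counts per library, or 0.142 CPM (counts scaled to library size) in the shallowest one, as far as counting error goes. Kif12, Kif26b and Kif27 did not exceed 0.49 TPM anywhere, and with Kif2b they were left out of the tests.

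Kif18a, which dampens the movements of chromosomes at the metaphase plate by acting on the plus ends of kinetochore microtubules, was among the lowest members in the input, at 0.63 ± 0.435 TPM (SD, n = 10). Its gene lies at chr2:109120895-109181904 on the plus strand (mm9). In the Tet1 line its level was 7.83 and 8.67 TPM in the IP and 0.35 and 0.41 TPM in the input of the same pairs, where these inputs rested on 19 and 22 expected counts. Both Tet1 IP libraries thus lay 21.1 to 22.4 times above their own input. On the scale of log2 of (TPM + 1) in IP over (TPM + 1) in input, which compresses low levels, the Tet1 ratios were 2.71 and 2.78.

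The Tet2 lines also held more Kif18a in the IP than in the input in each of 8 pairs, but to very different extents. The 4 Tet2 IP libraries were at 37.2, 0.86, 5.39 and 4.81 TPM, in the order of replicates 1 to 4, and their inputs at 0.53, 0.55, 0.76 and 0.76 TPM. The lowest IP library still lay above the highest input, and replicate 1 was raised 70.2-fold against 1.56-fold for replicate 2. In edgeR's quasi-likelihood test, blocked on the pairs, Kif18a was higher in Tet2 IP by 2.77 on the log2 scale (SE 0.76, adjusted p = 0.0177). The family was chosen with earlier results of both Tet2 lines known, so the p-values of Kif18a in these lines are no independent support. The adjusted p ranged from 6.1e-05 to 0.0569 over 20 alternatives, of which 16 were past the threshold of 0.05. Some of these left out only pairs of other lines and kept all Tet2 libraries, so they test the call little. With replicates 3 and 4 summed Kif18a was at 2.84 (SE 0.92, edgeR adjusted p = 0.0508), so the call was lost.

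In the Tet2ΔRBD line, the IP libraries were at 16.5, 0.32, 5.11 and 4.69 TPM and the inputs at 0.63, 0.06, 0.53 and 1.72 TPM. Here the groups overlapped, because replicate 2 had little Kif18a on either side, with 27 and 5 expected counts. The fitted difference was 2.70 (SE 0.77, edgeR adjusted p = 0.0325), and 14 of 20 alternatives passed the threshold, with adjusted p-values from 0.000297 to 0.274. As in Tet2, some alternatives left out only pairs of other lines. Here too the call was lost with replicates 3 and 4 summed, at 2.91 (SE 0.92, edgeR adjusted p = 0.0793). The IP effects of Tet2 and Tet2ΔRBD on Kif18a differed by 0.07 on the log2 scale with an SE of 1.13, so a difference as large as that SE could not be detected. Leaving out the number 2 pairs of both lines gave 3.62 (SE 0.73, edgeR adjusted p = 0.0052) in Tet2 and 2.76 (SE 0.70, edgeR adjusted p = 0.0176) in Tet2ΔRBD, and the set of replicates 3 and 4 with Tet1 gave 2.53 (SE 0.29) and 1.93 (SE 0.28). The smaller SEs in that set rest on replicates that were close to each other. The gene Mettl15 overlaps Kif18a on the opposite strand with 11 shared exon bases, and whether the libraries keep the strand is not stated. Mettl15 itself had ratios below 0 in all 10 pairs, with means of -0.22, -0.47 and -0.39 in Tet1, Tet2 and Tet2ΔRBD.

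Kif18b, the closest relative of Kif18a, did not pass the test. Its TPM in Tet1 was 26 and 30.1 in IP and 28.0 and 29.7 in input. In Tet2 it was 83.0, 82.1, 23.8 and 22.9 in IP and 63.2, 58.8, 21.8 and 24.7 in input, and in Tet2ΔRBD 91.9, 48.6, 31.2 and 32 in IP and 81.2, 61.7, 25.1 and 24.3 in input. IP and input overlapped in every line, and both were higher in replicates 1 and 2 than in replicates 3 and 4. The fitted difference was -0.10 (SE 0.11, edgeR adjusted p = 0.513) in Tet2 and -0.14 (SE 0.11, edgeR adjusted p = 0.368) in Tet2ΔRBD.

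**Figure D1:**
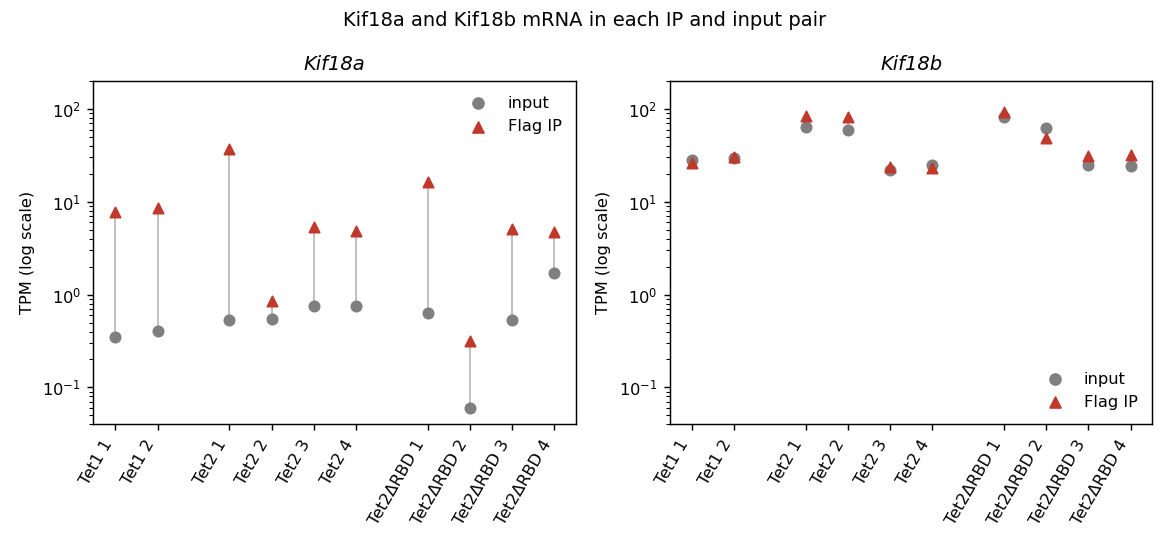
TPM of Kif18a (left) and Kif18b (right) in each IP (red triangles) and its input (grey circles), on a log axis, with a line joining the 2 libraries of a pair and the pairs named by line and replicate number. The Kif18a IP lies above its input in all 10 pairs, by the smallest factor in Tet2 pair 2 (0.86 against 0.55 TPM), while the Kif18b symbols lie close together in every pair.

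Across the family, 37 of the 41 kinesins passed the filter on low counts (at least 1 CPM in at least 2 libraries) and were tested, and 36 of them also passed it on the inputs alone, the exception being Kif6. Kif6 passed only through its level in IP libraries and is left out of the counts and medians of the family below, which cover 36 members. In Tet1, the fit marked 3 mitotic kinesins as higher in IP (Kif18a, Kif20a and Kif23) and none as lower, beside 2.72% of all 13710 genes tested marked higher and 3.18% lower. These are the values of the RIP that led to the family, and nothing is read from them. The fitted ratios of these 3 genes were 4.29 (SE 1.06), 1.84 (SE 0.45) and 1.43 (SE 0.30) on the log2 scale. The median fitted ratio in Tet1 was 0.80 over 14 mitotic, 0.30 over 17 transport and -0.08 over 5 other members, and -0.04 over all genes.

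In Tet2, 14 of the 36 kinesins were higher in IP and 1 was lower, where 14.6% of all genes were higher and 18.5% lower. The 14 comprised 7 of 14 mitotic, 6 of 17 transport and 1 of 5 other members, so both large classes exceeded the background share. The median fitted ratio was 0.64 over mitotic, 0.48 over transport and 0.55 over other kinesins, and 0.0032 over all genes tested. In Tet2ΔRBD, 9 kinesins were higher and none lower, where 7.4% of all genes were higher and 12.1% lower. They were 5 mitotic, 3 transport and 1 other member, and the median ratios were 0.58, 0.37 and 0.12, beside -0.01 over all genes. The 2 lists shared 9 kinesins, which is 9 of 9 in Tet2ΔRBD and 9 of 14 in Tet2. When each of the 10 pairs was left out in turn, Kif20a, Kif23, Kif1c, Kif1a, Kif21a and Kif26a passed every time in Tet2, and Kif20a, Kif23 and Kif1c did so in Tet2ΔRBD. Only omissions of a line's own pairs removed its data, and the others acted through estimates shared by all lines. Each of the other 9 calls in Tet2 was lost without at least 1 of the Tet2 pairs. In Tet2ΔRBD, Kif18a, Kif21a, Kif2c, Kif26a, Kifc3 and Kif15 were each lost without pair 3 and without at least 1 further pair. With replicates 3 and 4 summed, 7 kinesins were higher and 1 lower in Tet2 (9.28% and 14.2% of all genes), namely Kif20a, Kif23, Kif1c, Kif1a, Kif21a, Kif26a, Kif13b and Kifc2, and 3 were higher in Tet2ΔRBD (3.12%), namely Kif20a, Kif23 and Kif1c. Without the pairs as blocks, 1 kinesin (Kif15) was called in Tet2 and none in Tet2ΔRBD.

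The largest of these differences belonged to motors of the spindle and of cytokinesis. Kif20a, which the chromosomal passenger complex needs to reach the midzone, was at 135, 130, 40.7 and 39.4 TPM in Tet2 IP and at 41.9, 13.1, 9.05 and 10.7 TPM in input. Each IP lay above its own input, and the groups overlapped only through the input of replicate 1. In edgeR it rose by 1.94 (SE 0.32, adjusted p = 0.00166) in Tet2 and by 1.71 (SE 0.32, adjusted p = 0.00634) in Tet2ΔRBD. Kif20a shares 1259 of its 3893 annotated exon bases with Cdc23 on the opposite strand, and its reads are uncertain to that extent. Cdc23 had mean ratios of -0.25, -0.07 and -0.05 in Tet1, Tet2 and Tet2ΔRBD.

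Kif23, a subunit of centralspindlin, the complex that starts the cleavage furrow, was at 66.6, 29.5, 16.7 and 14.6 TPM in Tet2 IP and at 17.6, 8.24, 7.02 and 6.66 TPM in input. It rose by 1.22 (SE 0.21, edgeR adjusted p = 0.00201) in Tet2 and by 1.06 (SE 0.21, edgeR adjusted p = 0.00844) in Tet2ΔRBD. Kif15, a spindle motor that can stand in for Kif11, was at 14.8, 3.81, 7.90 and 8.05 TPM in Tet2 IP against 1.42, 2.27, 1.73 and 1.77 TPM in input. Its Tet2 groups did not overlap, whereas in Tet2ΔRBD the IP of replicate 2, at 1.68 TPM, lay among the inputs. It rose by 1.81 (SE 0.50, edgeR adjusted p = 0.0182) in Tet2 and by 1.59 (SE 0.50, edgeR adjusted p = 0.0480) in Tet2ΔRBD, where 7 of the 10 omissions of a single pair ended the call.

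Kif2c rose in both Tet2 lines, by 0.62 (SE 0.19, edgeR adjusted p = 0.0270) and 0.69 (SE 0.19, edgeR adjusted p = 0.0287). Kif4, a chromokinesin that organises the midzone, and Kif14, which acts in cytokinesis, rose in Tet2 by 1.12 (SE 0.35, edgeR adjusted p = 0.0319) and 0.63 (SE 0.18, edgeR adjusted p = 0.0228), and did not pass the test in Tet2ΔRBD. Kif4 shares 0.304% of its 50-base stretches with Kif4-ps. The mitotic members with the highest input levels, Kifc1 and Kif22, did not pass. Kifc1 had 0.35 (SE 0.15) in both Tet2 and Tet2ΔRBD with edgeR adjusted p-values of 0.0903 and 0.117, and Kif22 had 0.22 (SE 0.10) in Tet2 and 0.20 (SE 0.10) in Tet2ΔRBD. Kifc1 and Kifc5b share 46.5% and 41.0% of their 50-base stretches, so that reads may be divided between them, and both had nearly the same ratio.

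Kif20b, which acts in the completion of cytokinesis, shows how far the number 2 pairs decided a call. Its TPM was 14.4, 0.57, 4.28 and 4.37 in Tet2 IP against 0.24, 1.33, 0.42 and 0.30 in input, and 25.2, 0.16, 5.19 and 4.08 in Tet2ΔRBD IP against 0.59, 0.50, 0.47 and 1.00 in input. In 3 of 4 pairs of each line it was 4.08- to 59.9-fold above its input, and in the number 2 pairs it was below it. With all pairs the fitted ratios of 2.86 (SE 1.25, edgeR adjusted p = 0.100) in Tet2 and 2.28 (SE 1.19, edgeR adjusted p = 0.192) in Tet2ΔRBD did not pass. Without the number 2 pairs they were 4.10 (SE 0.64, edgeR adjusted p = 0.0016) and 3.32 (SE 0.61, edgeR adjusted p = 0.0048). This gene and this omission were chosen after the values were seen, and the pairs left out are those below input. The adjusted p-values without those pairs are therefore no separate evidence of enrichment.

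Among the transport kinesins, 6 rose in Tet2 and 3 in Tet2ΔRBD. Kif21a, a motor that limits microtubule growth, rose by 1.10 (SE 0.20, edgeR adjusted p = 0.00252) in Tet2 and 0.81 (SE 0.21, edgeR adjusted p = 0.0213) in Tet2ΔRBD, at levels no higher than 2.97 TPM in any library. Kif1c and Kifc3 rose in both lines as well, Kif1c by 0.63 (SE 0.11) and 0.55 (SE 0.11) and Kifc3 by 0.48 (SE 0.12) and 0.45 (SE 0.12). Kif1a, an axonal motor of synaptic vesicle precursors, Kif13b and Kif1b rose in Tet2 only by this test, by 0.87 (SE 0.20), 0.74 (SE 0.22) and 0.43 (SE 0.13), and none of the 3 differed between Tet2 and Tet2ΔRBD after adjustment. Without Tet2 pair 2, the ratio was 0.43 (SE 0.16, edgeR adjusted p = 0.0778) for Kif13b and 0.28 (SE 0.11, edgeR adjusted p = 0.0918) for Kif1b, and neither passed. The Kif13b call was also lost without Tet2 pair 1 and the Kif1b call without Tet2 pair 3. Kif1a had log2 ratios of TPM + 1 of 1.21, 1.76, 0.25 and 0.30 in Tet2 pairs 1 to 4. In the set of replicates 3 and 4 alone, the Tet2 calls of Kif1a and Kif13b were lost. Kif5b had 0.46 (SE 0.24, edgeR adjusted p = 0.160) in Tet2 and 0.38 (SE 0.24, edgeR adjusted p = 0.271) in Tet2ΔRBD.

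Kifc2 was the 1 kinesin that fell, by 0.45 on the log2 scale in Tet2 (SE 0.11, edgeR adjusted p = 0.00931). Its TPM was 6.33, 9.35, 8.55 and 9.53 in Tet2 IP and 7.74, 9.70, 9.46 and 9.71 in input, so that each IP lay slightly below its own input. On the TPM scale this is a mean difference of -0.11 ± 0.10 (SD, n = 4), and under limma on log2(TPM + 1) the call was lost. Outside the large classes, Kif26a, an atypical kinesin of signalling without motor activity, rose by 0.80 (SE 0.17, edgeR adjusted p = 0.00604) in Tet2 and 0.68 (SE 0.18, edgeR adjusted p = 0.0221) in Tet2ΔRBD.

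**Figure D2:**
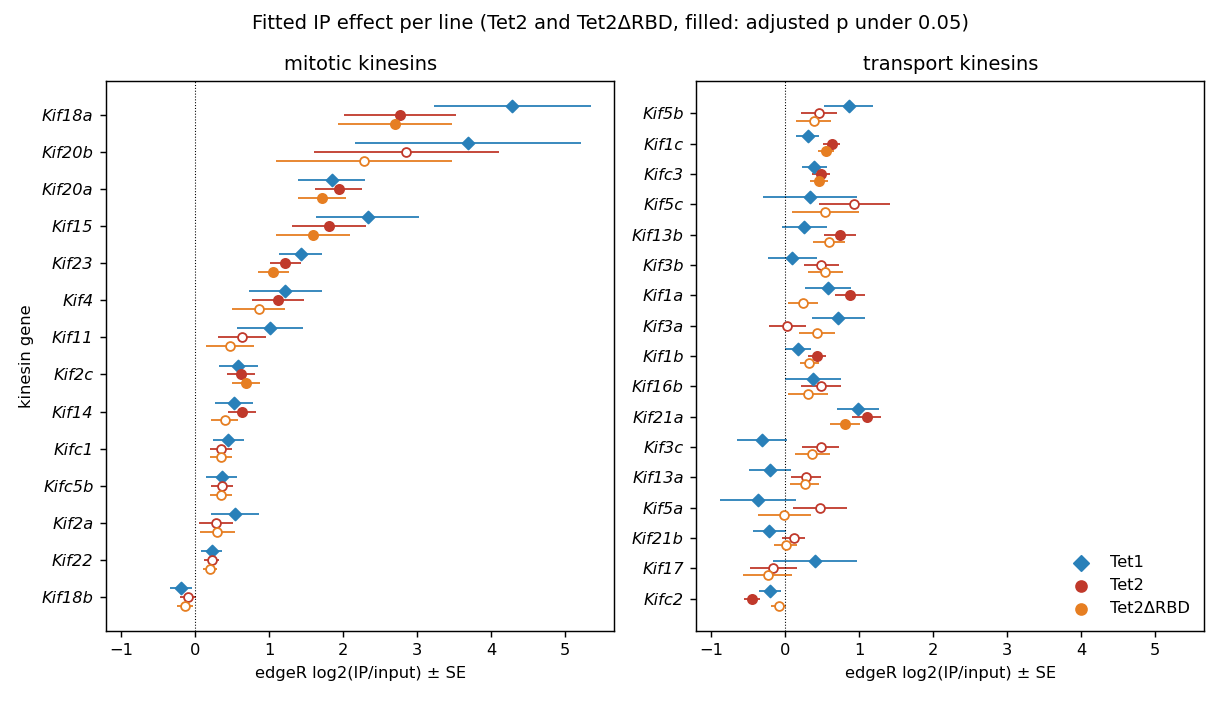
edgeR's fitted log2(IP/input) with its SE for the 14 mitotic (left) and 17 transport (right) kinesins tested, in Tet1 (blue diamonds, without mark of a test), Tet2 (red) and Tet2ΔRBD (orange). Filled circles passed the adjusted threshold and open circles did not. Kif18a has the largest ratio in Tet1 (4.29), and Kif18b at the bottom of the left panel is slightly below 0 in all 3 lines.

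No kinesin passed when the IP effect in Tet2 was tested against that in Tet2ΔRBD, where 0.0219% of all genes were higher in Tet2 and 0% lower. At an unadjusted p under 0.05 there were 2 of the 36 kinesins, Kifc2 and Kif1a, and DESeq2 and limma called none either. The median difference, Tet2 minus Tet2ΔRBD, was 0.12 over mitotic and 0.10 over transport kinesins, beside -0.01 over all genes.

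When a transcript was counted as enriched if the IP held a higher TPM than its own input in every pair of a line, 26 of 36 kinesins were above input in all 4 Tet2 pairs and 25 in all 4 Tet2ΔRBD pairs, where 46.5% and 31.8% of all genes tested were. These counts depend on the scale. On TMM-scaled CPM they were 22 in Tet2 (25.1% of all genes) and 16 in Tet2ΔRBD (14.2%), and after centring on genes of similar GC content they were 22 (27.3%) and 16 (22%). In Tet1 27 were above input in both pairs, beside 50.9% of all genes, and 4 transport members were below it in both, beside 30.1%. By class, the Tet2 count held 12 of 14 mitotic, 11 of 17 transport and 3 of 5 other members, and the Tet2ΔRBD count held 9, 13 and 3. Kifc2 was the 1 member below input in every Tet2 pair (11.9% of all genes), and none was in Tet2ΔRBD (8.56%).

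**Figure D3:**
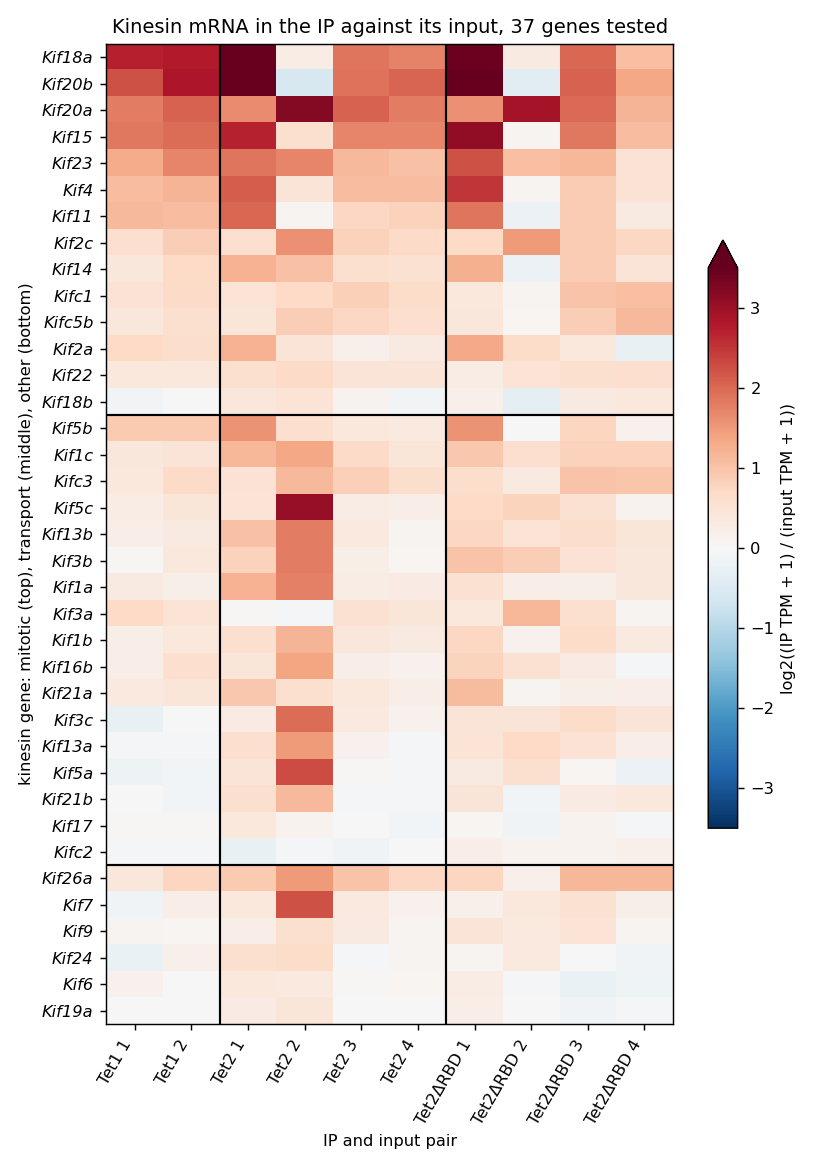
Heat map of log2 of (IP TPM + 1) over (input TPM + 1) for the 37 kinesins tested, 1 row a gene and 1 column a pair, with the mitotic, transport and other classes separated by black lines and ordered within a class by their mean over the lines. The colour scale ends at 3.5, which Kif18a and Kif20b exceed in some pairs. Kif18a and Kif20b are red in most columns and pale or blue in the number 2 columns (0.26 and -0.57 in Tet2), whereas Kif20a is reddest there (3.22 in Tet2 and 2.90 in Tet2ΔRBD) and several transport rows are reddest in Tet2 pair 2.

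The comparison of mitotic with transport kinesins changed sign with the pair. Per pair, the median ratio over the 14 mitotic members was 0.90 and 0.97 in Tet1, 1.44, 0.61, 0.82 and 0.75 in Tet2, and 1.46, 0.09, 0.89 and 0.65 in Tet2ΔRBD. The median over the 17 transport members was 0.22 and 0.36 in Tet1, 0.55, 1.36, 0.25 and 0.16 in Tet2, and 0.63, 0.44, 0.51 and 0.23 in Tet2ΔRBD. In the Tet2 lines, mitotic members were thus higher than transport members in every pair except the number 2 pairs, where they were lower. Mitotic members were also higher in both Tet1 pairs, which is a description only, since the Tet1 RIP led to the family. The classes were formed with earlier results of the Tet2 lines known, so the comparison there is no independent test either. The sign went with the library set, and pairs of the same set are not independent of each other. All tested genes had medians between 0.03 and 0.34, so the TPM scale itself is shifted above 0 in every pair. Both classes had medians above that of all genes in all 10 pairs, the Tet1 pairs included as a description.

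The difference, mitotic minus transport, was 0.64 ± 0.05 (SD, n = 2) in Tet1, 0.32 ± 0.73 (SD, n = 4) in Tet2 and 0.32 ± 0.49 (SD, n = 4) in Tet2ΔRBD. The Tet1 replicates were as close to each other as replicates 3 and 4, so the Tet1 SD may understate the spread between independent pairs. With all 4 pairs the difference is smaller than the spread between pairs in both Tet2 lines. Without the number 2 pair it was 0.68 in Tet2 and 0.55 in Tet2ΔRBD, with 3 pairs each. The classes differ within themselves as well, since Kif18b had a mean ratio of 0.22 ± 0.26 (SD, n = 4) in Tet2 where Kif20a had 2.18 ± 0.71.

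**Figure D4:**
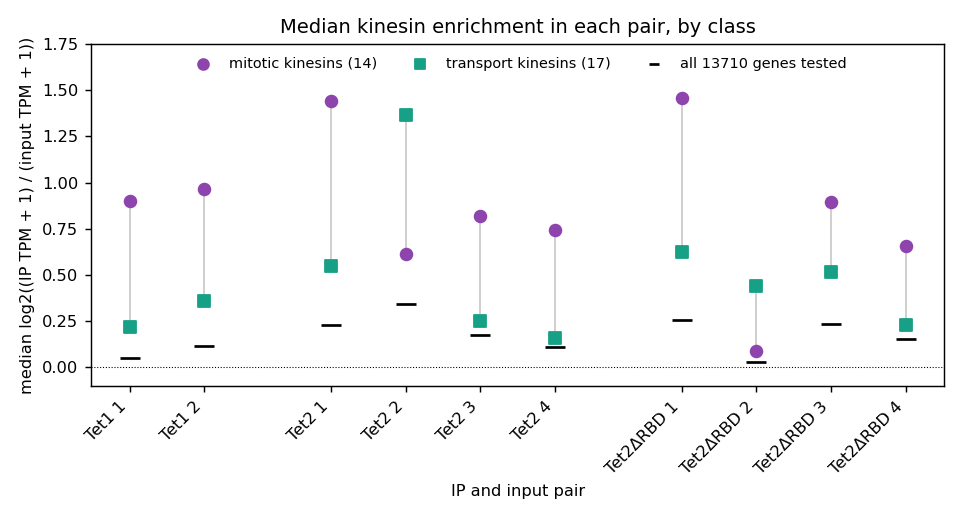
Median log2 of (IP TPM + 1) over (input TPM + 1) in each pair, for the 14 mitotic kinesins (purple circles), the 17 transport kinesins (green squares) and all genes tested (black bars). The circles lie above the squares in 8 of 10 pairs, with both Tet1 pairs among them as a description, and below them in pair 2 of Tet2 and of Tet2ΔRBD. Pairs of a library set are not independent, and the pairs with circles below form 1 set.

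In Tet2 pair 2, several transport and signalling members had higher ratios than in any other pair. Kif5c, a neuronal heavy chain, was at 15.8 TPM in that IP, against 3.55, 1.91 and 2.11 in the other Tet2 IP libraries and 1.04 in its own input. Kif7, a ciliary regulator of hedgehog signalling, was at 32.5 TPM there against 5.68, 4.15 and 3.46, with an input of 6.17. Their log2 ratios were 3.05 and 2.23 in this pair, and no higher than 0.48 and 0.38 in the others of Tet2. Kif5a, Kif3c, Kif3b and Kif13b had ratios between 1.79 and 2.27 in the same pair. In Tet2ΔRBD pair 2 these 6 members had ratios between 0.38 and 0.87, so the values of Tet2 pair 2 were not shared by the other line.

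Within the set of replicates 3 and 4, which also holds both Tet1 pairs, the spread was smaller and more members passed. Of 35 kinesins tested there, 18 were higher and 3 lower in Tet2 IP (24.7% and 25.1% of all genes), and 18 were higher and none lower in Tet2ΔRBD IP (24.2% and 24.9%). The mitotic class accounted for 12 of the 18 in each line, out of 14 tested. Replicates of a line were close to each other in this set. These calls thus rest on a spread that may understate the spread between independent replicates. Without the number 2 pairs but with replicate 1, 15 kinesins were higher and 1 lower in Tet2 (17.3% and 20.9% of all genes) and 17 were higher in Tet2ΔRBD (13.3%), of which 9 and 10 were mitotic.

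Base composition moved with the ratios of the family in most pairs, but not in the number 2 pairs or in pair 4 of Tet2ΔRBD. The coding transcript of Kif18a has the lowest GC content of all 41 kinesins, at 38.3%, followed by Kif20b at 39.4%, Kif2a at 40.6%, Kif5b at 41.1%, Kif11 at 42.2% and Kif15 at 42.7%, while Kif18b has 55.2% and Kifc1 57.2%. The 30-base loops printed above do not follow this order throughout, since Kif18a has more G or C there than Kif20b and Kif11, and Kifc1 has fewer than Kif18b. The median GC content was 47.3% over the 14 mitotic members tested, 52.5% over the 17 transport members and 51.1% over the 13110 tested genes with a coding transcript in the gencode vM1 annotation.

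Across the 37 members, Pearson's r between GC content and the log2 ratio was -0.65 and -0.61 in Tet1, -0.64, 0.22, -0.43 and -0.51 in Tet2, and -0.71, -0.12, -0.44 and -0.02 in Tet2ΔRBD. These correlations run across genes of the same libraries, which are not independent replicates, and they are given as a description. Without Kif18a, over 36 members, r was -0.60 and -0.55 in Tet1 and between -0.67 and 0.18 in the Tet2 lines. Over all 13110 genes, Spearman's rho was between -0.28 and 0.40, and in Tet1 it was -0.10 and -0.11 where the kinesins had -0.57 and -0.56. After each pair was centred on genes of similar GC content, mitotic minus transport was 0.52 in Tet1, 0.28 in Tet2 and 0.30 in Tet2ΔRBD, and with an offset for GC content in each library the edgeR fit gave Kif18a 2.61 (SE 0.61, adjusted p = 0.00681) in Tet2 and 2.43 (SE 0.62, adjusted p = 0.0168) in Tet2ΔRBD.

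**Figure D5:**
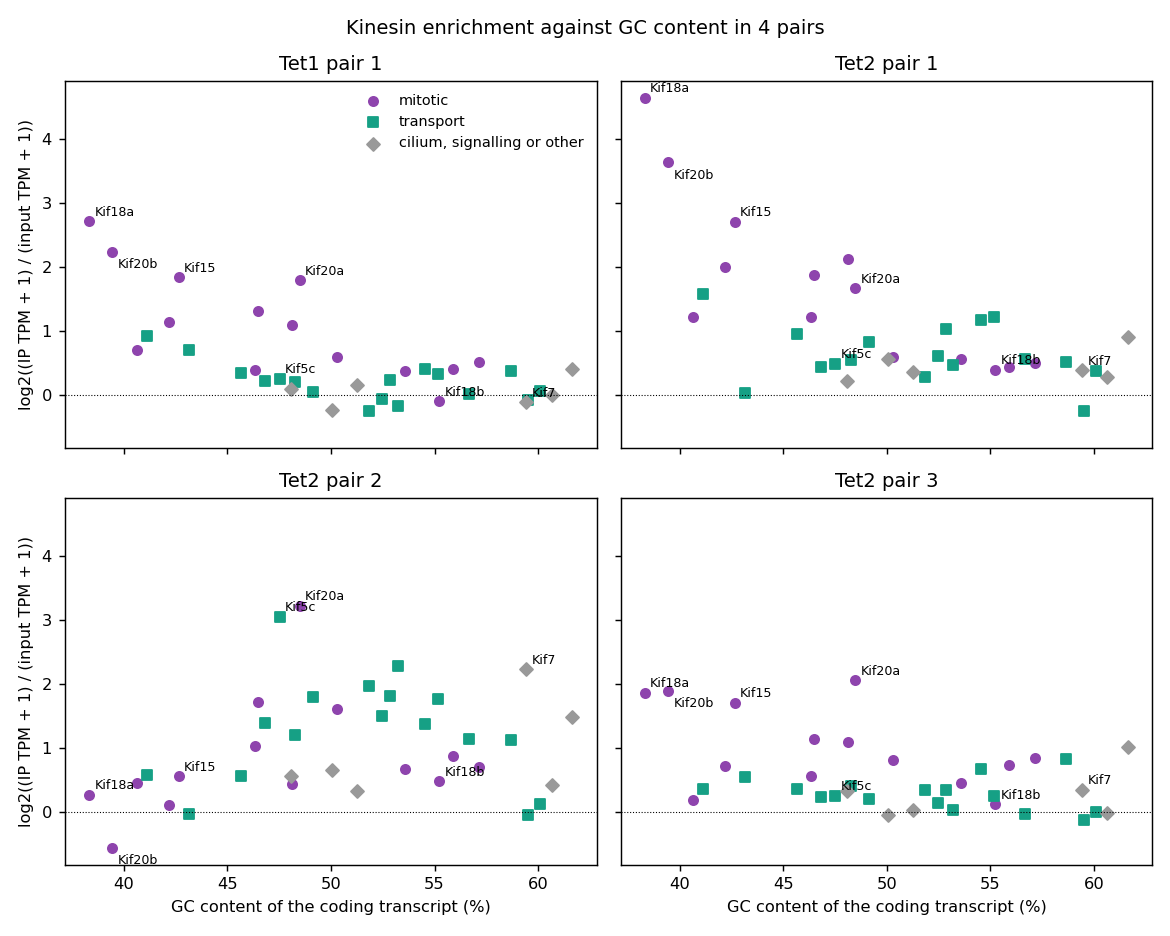
GC content of the coding transcript (percent) against log2 of (IP TPM + 1) over (input TPM + 1) for the 37 kinesins tested, in Tet1 pair 1 and Tet2 pairs 1, 2 and 3, with mitotic (purple circles), transport (green squares) and other members (grey diamonds). Kif18a and Kif20b, at the left, have the largest ratios in Tet1 pair 1 and Tet2 pair 1, and in Tet2 pair 2 they are at 0.26 and -0.57 while Kif20a, Kif5c and Kif7 are the highest of the labelled genes.

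The level of kinesin mRNA in the input did not pass a test between the lines. For Tet2ΔRBD against Tet2, no kinesin of 36 tested was called, where 0% of all 13310 genes were, and none had an unadjusted p under 0.05. With the replicate number as a block, which the inputs share across these lines, there was still no kinesin called and 4 had an unadjusted p under 0.05. For Tet1 against Tet2 no kinesin was called either, beside 0.233% of genes higher and 0.173% lower, and 2 had an unadjusted p under 0.05, Kif1a and Kifc2. DESeq2 and limma called no kinesin in either input comparison. Kif18a in the input differed by 0.14 (SE 0.68) for Tet2ΔRBD minus Tet2. Within the set of replicates 3 and 4 alone, with 2 inputs a line, 4 kinesins were higher (Kif20a, Kif4, Kif2c and Kifc3) and 2 lower (Kif26a and Kif21b) in Tet2ΔRBD than in Tet2, where 9.71% and 11.2% of all genes were called. The fitted input differences were 0.79 (SE 0.22, edgeR adjusted p = 0.0371) for Kif20a and -1.07 (SE 0.11, edgeR adjusted p = 0.00111) for Kif26a. The 2 inputs of a line were close replicates here, so these p-values may understate the spread between independent inputs. For Tet1 against Tet2 in that set, 12 kinesins were higher and 6 lower (24.9% and 24.9% of all genes).

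The partners of these motors were described by 3 lists. Of 23 spindle and cytokinesis partners, 8 were higher and 2 lower in Tet2 IP, and 3 were higher and 1 lower in Tet2ΔRBD IP, with median ratios of 0.43 and 0.27. Of all genes, 14.6% were higher and 18.5% lower in Tet2, and 7.4% and 12.1% in Tet2ΔRBD. The kinetochore subunits Ndc80 and Nuf2, to which spindle microtubules attach, rose by 2.37 (SE 0.49, edgeR adjusted p = 0.00476) and 2.23 (SE 0.32, edgeR adjusted p = 0.000778) in Tet2, and by 2.24 (SE 0.50) and 1.67 (SE 0.32) in Tet2ΔRBD. Cenpe, a kinetochore kinesin whose symbol lies outside the rule, rose by 2.07 (SE 0.67, edgeR adjusted p = 0.0352) in Tet2. The checkpoint gene Mad2l1 fell by 0.56 (SE 0.15) and Birc5, a passenger complex subunit, fell by 0.43 (SE 0.13) in Tet2, and the passenger kinase Aurkb fell by 0.47 (SE 0.11) in Tet2ΔRBD. In Tet1 the list had a median of 0.47, which is a description only.

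Of 13 cargo adaptors and light chains tested, 3 were higher in Tet2 IP (Kifap3, the accessory subunit of the Kif3 motor, and the light chains Klc2 and Klc4) and 2 in Tet2ΔRBD IP (Klc4 and Rhot2, a mitochondrial adaptor), beside 14.6% and 7.4% of all genes. Kifap3 rose by 0.96 (SE 0.30, edgeR adjusted p = 0.0292) in Tet2. None of this list was lower in either line. Of 12 subunits of dynein, a minus-end-directed motor, and its cofactor dynactin, 2 were higher and 2 lower in Tet2 IP. In Tet2ΔRBD IP, 1 was higher and 2 lower. In Tet2 these shares of the list are near those of all genes (14.6% higher and 18.5% lower). For Tet2ΔRBD, 7.4% of all genes were higher and 12.1% lower. Dync1li1 and Dctn5 fell in both lines, Dync1li1 by 0.49 (SE 0.08, edgeR adjusted p = 0.00180) and 0.55 (SE 0.08, edgeR adjusted p = 0.00206). The medians of this list were 0.07 and 0.12, the nearest to those of all genes among the 3 lists. With replicates 3 and 4 summed, 11 partners of the 3 lists were called in Tet2 and 3 in Tet2ΔRBD, in place of 17 and 9.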

How the data were processed

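The samples comprised 10 IP and 10 input libraries of 3 ESC lines, grouped and numbered by the labels. The authors removed low-complexity reads (AfterQC) and rRNA and tRNA reads (Bowtie2), trimmed adapters (Trimmomatic, with FastQC), and mapped reads with RSEM to mm9 and a dated download of the RefSeq transcriptome. Tool versions are not given in the sources used here. They deposited, per gene, expected counts that are not normalized, TPM with a pseudocount of 1 added (treated here as a score, from which 1 was subtracted to give TPM), and the effective length used for that scaling. The deposited FPKM values were not used.

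Expected counts were rounded and tested with edgeR 4.0.16 in R 4.3.3 (quasi-likelihood, TMM, at least 1 CPM in at least 2 libraries, pairs as blocks, an IP effect for each line, all 20 libraries, 7 residual degrees of freedom, Benjamini-Hochberg over all genes, threshold 0.05). The SE is the fitted log2 ratio divided by the square root of F. Inputs were tested without a block. Fitted ratios are relative to TMM, and ratios of TPM + 1 are not. The fits were also run on simulated counts that held no differences between pairs or library sets, so that run says nothing about such differences. Alternatives were DESeq2 1.42.0, RLE factors, limma 3.58.1 with TPM + 1 or TPM + 0.1 in log2 units, no filter, no block, 1 library set alone, and leaving out each pair. Leaving out the number 2 pairs, summing replicates 3 and 4 and correcting for GC content in 20 bins were chosen after seeing the data.

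The pairing rests on the replicate numbers. Deviations from the group mean correlated across genes for IP and input of the same number by 0.62 or more in every pair of Tet2 and 0.58 or more in Tet2ΔRBD, and for same-numbered inputs of both lines by 0.70 or more. Replicates 3 and 4 correlated as highly across their numbers (IP with input, 0.77 to 0.80 in Tet2 and 0.61 to 0.73 in Tet2ΔRBD), so the correlations do not tell these 2 numbers apart, and other unlike numbers of IP and input gave at most 0.0146. Between the inputs of both lines, unlike numbers reached 0.83. In Tet1 the value for IP and input of the same number was 0.27, where deviations of 2 replicates are mirror images. Replicates of a group differed by more than sampling noise (chi-square over its degrees of freedom at least 2.83), and none were merged in the main fit.

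The family, its classes and the partner lists were chosen with earlier results of these data, from all 3 lines, known. Named were Kif18a and Kif18b, the 6 mitotic and 6 transport members highest in the input, members past the threshold (up to 5 in each direction with the largest ratio), and up to 3 partners past it per list and direction. Other members named (Kif20b, Kif5a, Kif5c, Kif7, Kif3b, Kif3c, Kif14, Kif13b, Kif2a, Kif6 and those of the GC comparison) were chosen after their values were seen. GC content is that of the gencode vM1 coding transcript nearest in length to the deposited one, found for all 41 kinesins and 20277 of 23284 genes. Plots were drawn with matplotlib 3.10.9.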

Additional observations from a re-analysis of the deposited data

Results flagged for a closer look

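In 74 groups of 4 pairs (37 kinesins in 2 lines), 5 had an extreme pair whose gap to its neighbour was past Dixon's critical value, and chance flags about 1 in 20 groups. Of these, 3 were pair 2 of Tet2, with log2 ratios of 1.97 for Kif3c, 3.05 for Kif5c and 2.23 for Kif7. The others were Kif21a in pair 1 of Tet2ΔRBD, at 1.12, and Kif3c in pair 3 of Tet2ΔRBD, at 0.65. Kifc2 was below input in every Tet2 pair (mean -0.11) and above input in every Tet2ΔRBD pair (mean 0.17), and the edgeR test of the difference gave -0.36 (SE 0.15, unadjusted p = 0.0359, adjusted p = 1.00). Kif3c was below input in both Tet1 pairs (mean -0.14) and above input in every Tet2 pair (mean 0.68). The difference of means was -0.82, and no test of it is given because it rests on the Tet1 ratios.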

How the results depend on the processing

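The paired design carried the IP results. Without the replicate block, edgeR called 0 kinesins in Tet1, 1 in Tet2 and 0 in Tet2ΔRBD, in place of 3, 15 and 9, and 0, 3 and 0 partner genes in place of 4, 17 and 9, and Kif18a had 3.94 (adjusted p = 0.0569) in Tet2 and 2.86 (adjusted p = 0.274) in Tet2ΔRBD. Of all genes, 0%, 2.74% and 0.336% were called in these IP fits without the block. Pairing the inputs by a replicate block left the count of kinesins called between the 2 Tet2 lines at 0 (0.0379% of all genes). In the set of replicates 3 and 4 alone, 23, 21 and 18 kinesins (19, 18 and 18 of them higher) and 30, 28 and 33 partners were called in Tet1, Tet2 and Tet2ΔRBD, where 46.8%, 49.9% and 49.1% of all genes were, and 6 and 18 kinesins in the inputs of Tet2ΔRBD and Tet1 against Tet2 (20.9% and 49.8%). Without the number 2 pairs, 7 and 17 kinesins and 10 and 18 partners were called in Tet1 and Tet2ΔRBD (20.9% and 30.8% of all genes). With replicates 3 and 4 summed, 1, 8 and 3 kinesins and 2, 11 and 3 partners were called (2.34%, 23.4% and 7.79% of all genes), and Kif18a had 2.84 (adjusted p = 0.0508) in Tet2 and 2.91 (adjusted p = 0.0793) in Tet2ΔRBD. With limma, 25 (log2(TPM + 1)) and 27 (log2(TPM + 0.1)) kinesins, all higher, and 29 and 28 partners were called in Tet2 (43.1% and 43.3% of all genes, 35% and 35.1% higher), 18 kinesins (log2(TPM + 0.1)) and 18 and 18 partners in Tet2ΔRBD (28.1% and 29.2%), and 2 partners (log2(TPM + 1)) in Tet1 (4.64%). DESeq2 called 7 and 16 partners in Tet1 and Tet2ΔRBD (11.5% and 23.9%), and the GC offset gave 15 in Tet2ΔRBD (24.9%). Kif18a in Tet1 was 2.74 and 4.12 with limma at the 2 pseudocounts and 3.60 with the GC offset, and in Tet2ΔRBD it was 1.70 (adjusted p = 0.0527) with limma on log2(TPM + 1).

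Leaving out each pair in turn gave 0 to 5, 9 to 16 and 3 to 14 kinesins called in Tet1, Tet2 and Tet2ΔRBD, and 0 to 6, 9 to 21 and 3 to 14 partners. Kif18a then ranged from 4.195 to 4.39 in Tet1, from 1.87 to 3.59 in Tet2 and from 2.05 to 3.47 in Tet2ΔRBD. It did not pass in Tet2 without its replicate 3 or 4, nor in Tet2ΔRBD without its replicate 1 or 3 or Tet1 replicate 2. The Tet1 count was 0 without either Tet1 pair, and the Tet2ΔRBD count was 3 without its replicate 3. Mitotic minus transport in Tet1 was 0.42 over members of at least 1 TPM, 0.49 without Kif18a, 0.80 without Kif2a and 0.52 after GC centring. Kinesins above input in every Tet2ΔRBD pair numbered 16 on the CPM scale (14.2% of all genes) and 16 after GC centring (22%), in place of 25 (31.8%). For the other 24 kinesin ratios called in the IP, 396 of 480 values under an alternative stayed past the threshold, 84 did not, and 0 changed sign. These values include omissions of pairs from other lines, which removed no data of the line in question. Low counts limit Kif18a and Kif20b in the input, and the causes of these changes were not tested.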
